A study of Mus musculus with 12 samples.

Results

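Expression of 10 genes of the hypoxia response and of glycolysis was described across 4 sorted populations of mouse epidermal cells. The genes, chosen by name, were Slc2a1, Hk2, Pfkfb3, Pgk1, Ldha, Hif1a, Egln3, Vegfa, Bnip3 and Ndufa4l2. All 10 were measured, among 17853 genes, and 119 exon probe sets carried their symbols, among 221205 probe sets that named a single gene. The cells were keratinocytes sorted from the back-skin epidermis of females whose hair follicles were resting (telogen). All mice were of C57BL6/CBA background and carried the Gata6-mtomato reporter, whose red fluorescence marks cells with an active Gata6 gene, so no population came from unmodified mice. Flow cytometry gave Gata6+Itga6- cells, Gata6+Itga6+ cells, CD34+ cells (Itga6+ without the reporter) and remaining basal cells (Itga6+ without the reporter or CD34), with 3 biological replicates each. Itga6 is an integrin of basal keratinocytes that anchors them to the basement membrane, and in mice CD34 is carried by bulge stem cells of hair follicles. The labels state that the mice were matched for age and sex. The age, the number of mice behind a sample and the way the reporter was built are not given in the sources used here. Each array read RNA of a whole sorted population, in which fewer cells of a type and less RNA per cell cannot be told apart.

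Cells sense oxygen through the hypoxia-inducible factors, whose alpha subunits, such as the one Hif1a encodes, are hydroxylated by prolyl hydroxylases when oxygen is plentiful and are then degraded. When oxygen is short the subunits last, pair with Arnt and bind DNA at short motifs near their target genes, which include glucose transporters, glycolytic enzymes, Vegfa and Bnip3. Epidermis has no blood vessels of its own, and keratinocytes use glycolysis for much of their energy. The level of Hif1a mRNA says little about the amount of its protein, which is set mainly by degradation.

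The core of the motif that these factors bind reads ACGTG or GCGTG. The promoters of 4 members are printed because the values below turn mostly on these members and on Ndufa4l2. Each window spans 250 bases before and 50 bases after a RefSeq start site of assembly GRCm38.p6, and runs 5′ to 3′ on the strand of the gene. Capitals mark every ACGTG or GCGTG on either strand, so that CACGT and CACGC are matches on the opposite strand. CACGTG holds ACGTG on both strands, is also the sequence of an E-box, and was counted as 1 match. The Hk2 window lies at chr6:82774405-82774704 (minus strand), that of Hif1a at chr12:73907617-73907916 (plus strand), that of Bnip3 at chr7:138909457-138909756 (minus strand) and that of Slc2a1 at chr4:119108495-119108794 (plus strand).
Hk2: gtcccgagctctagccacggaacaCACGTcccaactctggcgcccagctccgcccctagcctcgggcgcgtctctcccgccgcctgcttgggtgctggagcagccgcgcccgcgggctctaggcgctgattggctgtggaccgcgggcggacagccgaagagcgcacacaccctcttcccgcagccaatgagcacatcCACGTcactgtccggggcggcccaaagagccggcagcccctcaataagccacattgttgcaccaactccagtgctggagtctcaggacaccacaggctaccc
Hif1a: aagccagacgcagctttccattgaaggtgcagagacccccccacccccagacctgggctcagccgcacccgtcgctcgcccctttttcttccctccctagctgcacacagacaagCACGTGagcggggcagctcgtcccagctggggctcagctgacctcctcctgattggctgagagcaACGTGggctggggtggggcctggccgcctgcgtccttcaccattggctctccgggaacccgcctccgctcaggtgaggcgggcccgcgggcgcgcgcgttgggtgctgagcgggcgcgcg
Bnip3: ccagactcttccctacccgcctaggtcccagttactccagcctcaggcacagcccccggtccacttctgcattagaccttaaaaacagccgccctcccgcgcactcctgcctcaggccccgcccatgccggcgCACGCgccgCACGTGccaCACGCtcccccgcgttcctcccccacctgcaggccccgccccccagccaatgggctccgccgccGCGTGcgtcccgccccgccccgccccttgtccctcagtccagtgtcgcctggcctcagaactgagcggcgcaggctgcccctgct
Slc2a1: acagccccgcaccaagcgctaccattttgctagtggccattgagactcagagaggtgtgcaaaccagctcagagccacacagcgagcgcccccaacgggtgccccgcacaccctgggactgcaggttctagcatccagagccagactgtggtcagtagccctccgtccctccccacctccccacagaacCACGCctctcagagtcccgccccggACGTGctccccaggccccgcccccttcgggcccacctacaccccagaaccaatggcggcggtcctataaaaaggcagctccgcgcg
The Hk2, Hif1a and Slc2a1 windows held 2 matches each and the Bnip3 window 4. Of the members, 9 matched 12 windows in RefSeq, and 11 of these 12 windows, at least 1 for each of the 9, held a match; Ndufa4l2 was not among them. Of all 32851 windows of this length, 43.8% held a match and 17.3% held at least 2. Member windows also held more CG pairs, which the motif contains, with a median of 22 against 7 over all windows. These matches describe the sequence and show no binding.

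Levels are log2 of the deposited intensity plus 1, and a gene's level is the median of its probe sets on each array. The brightness of a probe depends on its sequence, so levels are compared between populations for the same gene and never between genes. The level of silent genes was taken as 2.46, which 95% of the population means of 1144 receptor genes for smell and pheromones did not exceed. It was set on gene medians and was used for single probe sets too. A gene or probe set is called where limma's Benjamini-Hochberg adjusted p, over all genes or all probe sets, lies under 0.05. With 3 arrays per population the number of arrays limits the precision, and comparisons that use the same population share its arrays. The sort genes followed the gates. Mean Gata6 was 5.84 (Gata6+Itga6-) and 4.39 (Gata6+Itga6+) where the reporter was on, against 2.84 (CD34+) and 2.73 (remaining basal) where it was off, and Cd34 averaged 7.95 in CD34+ cells and 1.66 to 1.96 in the others. Itga6 stood at 6.02 in Gata6+Itga6- cells, against 7.28 in Gata6+Itga6+ cells, so its mRNA was present in the population sorted as lacking the protein. All 5 basal keratinocyte markers looked at (Krt5, Krt14, Itga6, Itgb4 and Trp63) were above the level of silent genes in all 4 populations. The endothelial markers were under it in all 4, 6 of 6.

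The 10 genes did not move as a block. Ndufa4l2 was bright in remaining basal cells alone, Hk2 was highest in CD34+ cells and lowest in Gata6+Itga6- and remaining basal cells, and the other 8 genes passed no test between pairs of populations. Over the 4 populations together, 2 of 10 members, Hk2 and Ndufa4l2, were called by limma's moderated F test (adjusted p = 0.00394 and 0.000266), where 9.38% of all genes were called. Bnip3 and Hif1a came next with adjusted p of 0.0944 and 0.104 in the same limma test, then Ldha (0.217) and Slc2a1 (0.246). Pgk1, Pfkfb3, Egln3 and Vegfa lay between 0.471 and 0.963. Vegfa, with means close to the level of silent genes, had the narrowest spread of population means, 0.16 on the log2 scale, and Ndufa4l2 the widest, 3.29.

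**Figure D1:**
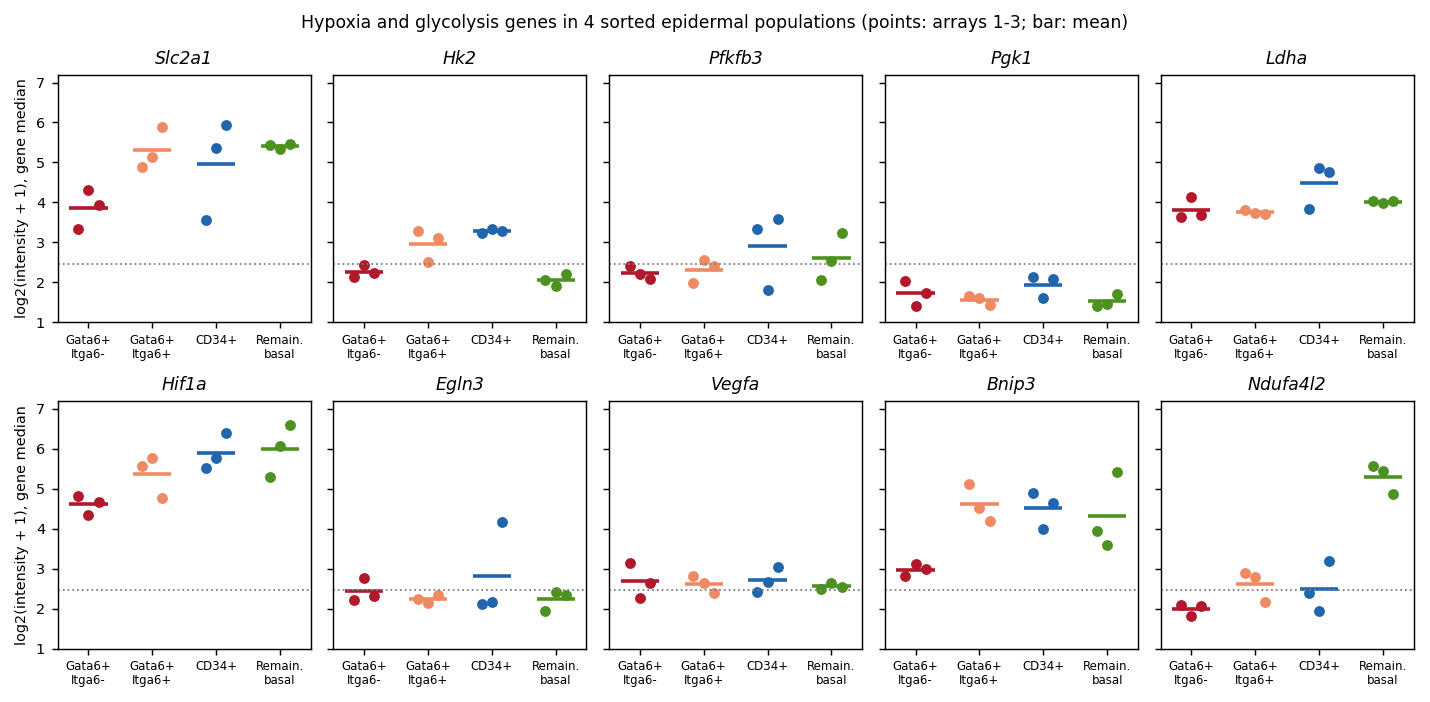
Level of each of the 10 genes, log2(intensity + 1), on each array (points) with the population mean (bar); populations run from Gata6+Itga6- on the left to remaining basal cells on the right, and the dotted line is the level of silent genes, 2.46. Ndufa4l2 stands at 4.86 to 5.57 in remaining basal cells and at 3.18 or lower on the other 9 arrays, and Hk2 at 3.23 to 3.34 in CD34+ cells, against 1.90 to 2.21 in remaining basal cells.

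By pairs of populations, Gata6+Itga6- cells had 1 of 10 members lower than CD34+ cells (Hk2, where 7.96% of all genes were called and 4.74% were lower) and 1 lower than remaining basal cells (Ndufa4l2, where 5.11% of genes were called and 2.15% were lower). Against Gata6+Itga6+ cells, 0 members were called in Gata6+Itga6- cells by limma (3.18% of genes), and 3 members (Slc2a1, Hk2 and Bnip3) had an unadjusted p under 0.05, as 13.4% of all genes did. Gata6+Itga6+ cells had 0 members called against CD34+ cells by limma (4.59% of genes), with 1 member (Ldha) at an unadjusted p under 0.05, as for 14.5% of genes. Gata6+Itga6+ cells differed from remaining basal cells in 2 members, Hk2 higher and Ndufa4l2 lower, where 1.36% of genes were called, 1.07% higher and 0.286% lower. In CD34+ cells Hk2 was likewise higher and Ndufa4l2 lower than in remaining basal cells, where 5% of genes were called, 3.32% higher and 1.67% lower. These last comparisons share the remaining basal arrays. The signs pointed down in Gata6+Itga6- cells for 10 of 10 members against CD34+ cells, with a median difference of -0.68 (all genes -0.02), for 6 of 10 against Gata6+Itga6+ cells (median -0.35, all genes -0.03) and for 6 of 10 against remaining basal cells (median -0.30, all genes 0.00). Against CD34+ cells that count took in Pgk1, under the level of silent genes in both, and Vegfa at -0.03. In alternative settings the differences of Egln3, Vegfa, Bnip3 and Ndufa4l2 from CD34+ cells reached 0.28, 0.36, 0.33 and 0.07. The mean level of the members was 4.11 on CD34+ replicate 3, against 3.35 on CD34+ replicates 1 and 2. In Gata6+Itga6+ cells 7 of 10 were negative against CD34+ cells (median -0.35, all genes 0.02) and 5 of 10 against remaining basal cells (median -0.05, all genes 0.04). In CD34+ cells 3 of 10 were negative against remaining basal cells (median 0.25, all genes 0.02). Replicates of the populations did not overlap for 4, 3 and 4 of 10 members when Gata6+Itga6- cells were set against Gata6+Itga6+, CD34+ and remaining basal cells, in that order, beside 19.4%, 22.7% and 19.8% of all genes. They did not overlap for 1 and 3 of 10 when Gata6+Itga6+ cells were set against CD34+ and remaining basal cells (19.5% and 15.7% of genes), and for 2 of 10 in CD34+ against remaining basal cells (18.8%).

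**Figure D2:**
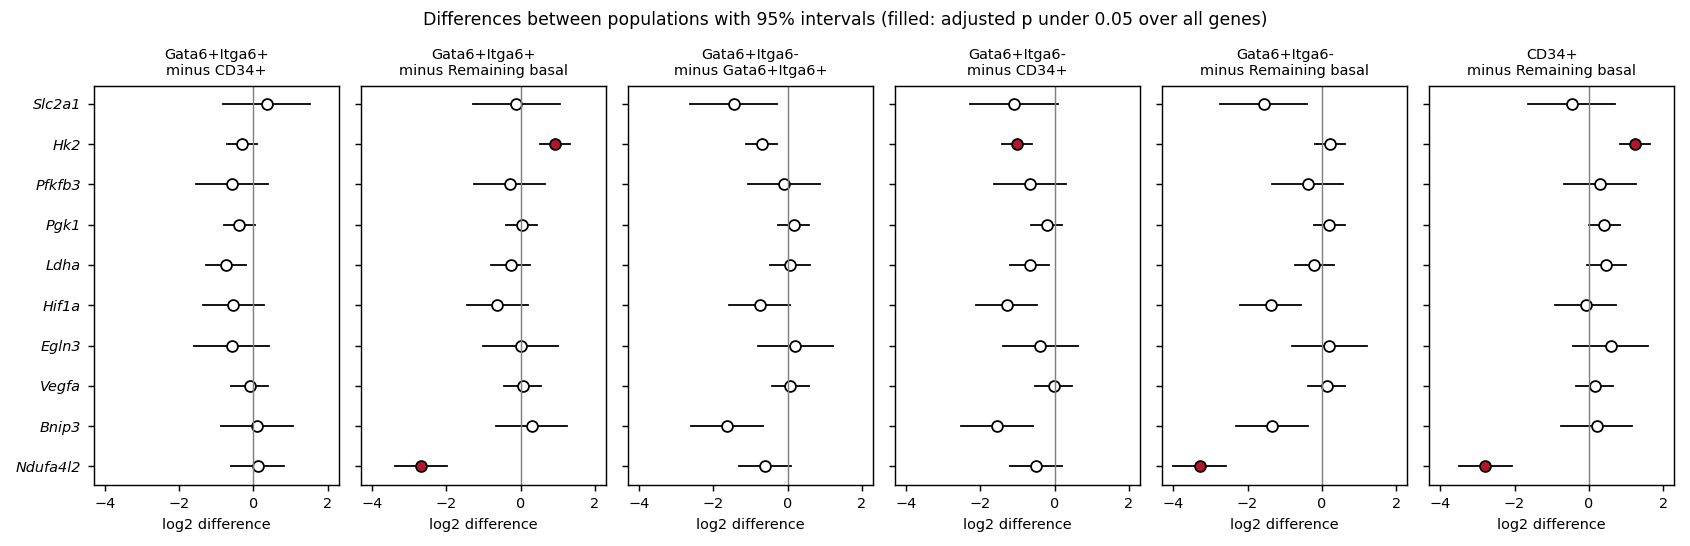
Difference in log2 level for each gene and pair of populations, the first population named minus the second, with the 95% interval of the limma fit; filled points have an adjusted p under 0.05 over all genes. The 6 filled points belong to Ndufa4l2, lower in each population than in remaining basal cells, and to Hk2.

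Glucose enters keratinocytes mainly through the transporter that Slc2a1 encodes, also known as GLUT1. Its level was 3.33, 4.31 and 3.92 in Gata6+Itga6- replicates 1 to 3, 4.87, 5.15 and 5.89 in Gata6+Itga6+ cells, 3.56, 5.35 and 5.94 in CD34+ cells and 5.43, 5.35 and 5.47 in remaining basal cells. All 3 Gata6+Itga6- arrays lay below all Gata6+Itga6+ and remaining basal arrays, and CD34+ replicate 1 alone lay among them. The differences of Gata6+Itga6- cells were -1.45 from Gata6+Itga6+ (95% interval -2.62 to -0.28), -1.10 from CD34+ (-2.27 to 0.07) and -1.56 from remaining basal cells (-2.73 to -0.39), each with an SE of 0.53, and none was called (limma adjusted p = 0.231, 0.315 and 0.156). Without CD34+ replicate 1 all 3 were called, at -1.45, -1.79 and -1.56 (limma adjusted p = 0.0425, 0.0126 and 0.0193). Each of the 10 Slc2a1 probe sets averaged less in Gata6+Itga6- cells than in each of the other populations, and 1 of them was called lower against Gata6+Itga6+ and against remaining basal cells (0.933% and 2.38% of all probe sets). That probe set read 3.84, 4.67 and 3.27 in Gata6+Itga6- cells, 6.68, 5.84 and 6.29 in Gata6+Itga6+ cells, 5.10, 5.09 and 5.72 in CD34+ cells and 5.73, 6.20 and 5.92 in remaining basal cells. Among Gata6+Itga6+, CD34+ and remaining basal cells the level of Slc2a1 differed by at most 0.46 between means, within the spread of the CD34+ replicates (SD 1.24). Slc2a3, another glucose transporter, was under the level of silent genes in all populations.

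Hexokinase 2, encoded by Hk2, phosphorylates glucose as it enters the cell. Hk2 stood at 2.14, 2.43 and 2.24 in Gata6+Itga6- cells, 3.29, 2.50 and 3.12 in Gata6+Itga6+ cells, 3.23, 3.34 and 3.28 in CD34+ cells and 2.05, 1.90 and 2.21 in remaining basal cells. CD34+ arrays were all above the Gata6+Itga6- and remaining basal arrays, and Gata6+Itga6+ replicate 2 was close to the highest Gata6+Itga6- array. Hk2 was lower in Gata6+Itga6- cells than in CD34+ cells by a log2 difference of -1.01 (SE 0.18, limma adjusted p = 0.00633), and higher in CD34+ than in remaining basal cells by 1.23 (SE 0.18, limma adjusted p = 0.00287). Both times the dimmer population averaged less than the silent level. Taken against that level each fold was estimated as at least 1.77, which is not a confidence bound. Gata6+Itga6+ cells were higher than remaining basal cells by 0.92 (SE 0.18, limma adjusted p = 0.0428), at least 1.42-fold. This last call held in 3 of 22 alternative settings: it was lost without Gata6+Itga6+ replicate 1 or 3, remaining basal replicate 1 or 2, or any CD34+ or Gata6+Itga6- array (limma adjusted p = 0.0574 to 0.170). Gata6+Itga6- and remaining basal cells (difference 0.22, 95% interval -0.19 to 0.63) and Gata6+Itga6+ and CD34+ cells (-0.31, -0.72 to 0.10) were not called apart. The fibroblast genes Col1a1 and Col1a2 were over the level of silent genes in CD34+ cells alone, at means of 2.83 and 2.89, and their part in the level of Hk2 was not tested.

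The 25 probe sets of Hk2 shared a sign more than a size. All 25 averaged less in Gata6+Itga6- cells than in CD34+ cells, of which 3 were called (3.98% of all probe sets), and 24 averaged more in CD34+ than in remaining basal cells, of which 2 were called (2.5%). Their differences ran from -3.35 to -0.13 in the first of these comparisons and from -0.07 to 3.81 in the other. A probe set called in both read 3.73, 4.29 and 4.11 in Gata6+Itga6- cells, 5.41, 4.87 and 4.38 in Gata6+Itga6+ cells, 5.03, 6.25 and 5.89 in CD34+ cells and 3.10, 2.84 and 3.30 in remaining basal cells. Of the 25, 18 exceeded the level of silent genes in at least 1 population. Among the 1586 genes that were over that level and called by the F test, those whose levels over the 12 arrays were most like those of Hk2 were Nt5e (r = 0.967), Sntb2 (0.947) and Steap4 (0.947), which encode a nucleotidase of the cell surface, a syntrophin and a metalloreductase. Nt5e averaged 3.25 in Gata6+Itga6-, 4.85 in Gata6+Itga6+, 6.44 in CD34+ and 1.82 in remaining basal cells. Hk1, which encodes hexokinase 1, followed a different order: it averaged 2.48 in Gata6+Itga6-, 3.36 in Gata6+Itga6+, 4.60 in CD34+ and 3.71 in remaining basal cells. Hk1 was called lower in Gata6+Itga6- cells than in CD34+ cells (-2.11, SE 0.37, limma adjusted p = 0.00472), with arrays of 2.14 to 2.71 against 3.99 to 5.10.

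**Figure D3:**
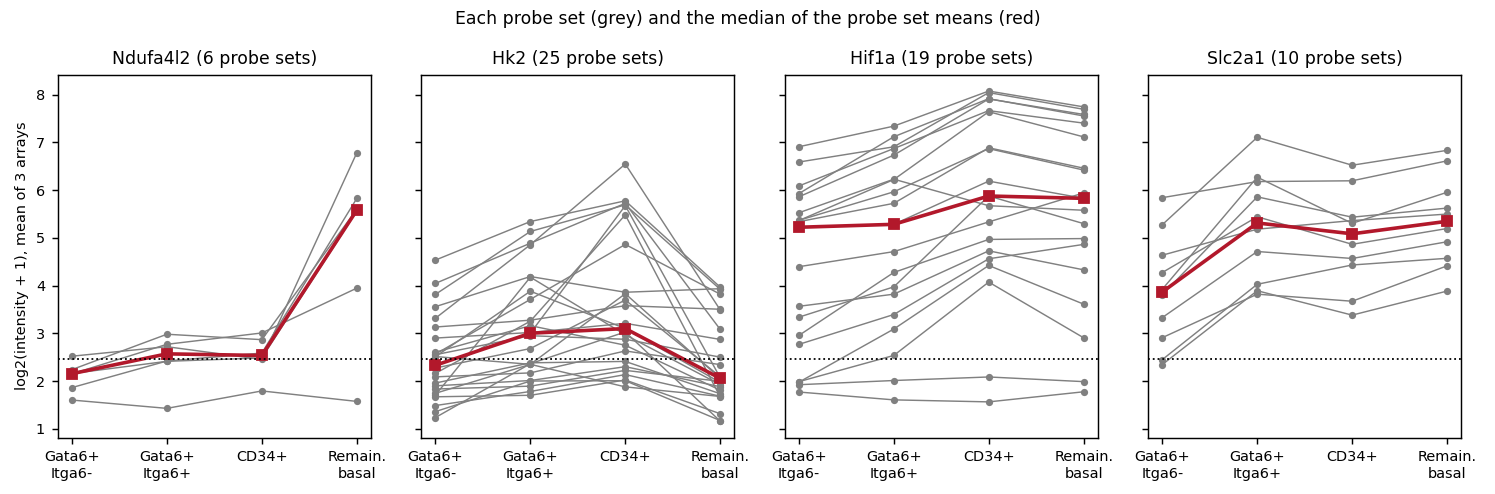
Mean log2 level over 3 arrays of each probe set (grey lines) of Ndufa4l2, Hk2, Hif1a and Slc2a1 in the 4 populations, with the median of these means in red and the level of silent genes dotted. Of the 6 Ndufa4l2 lines 5 are highest in remaining basal cells, the 10 Slc2a1 lines are all lowest in Gata6+Itga6- cells, and most Hk2 lines peak in CD34+ cells.

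Pfkfb3 makes the sugar phosphate that speeds up phosphofructokinase. Its level was 2.40, 2.21 and 2.08 in Gata6+Itga6- cells, 1.99, 2.57 and 2.40 in Gata6+Itga6+ cells, 3.34, 1.80 and 3.57 in CD34+ cells and 2.06, 2.54 and 3.24 in remaining basal cells. The CD34+ arrays spanned the whole range, and no pair was called. Without CD34+ replicate 2, which held the lowest value, Gata6+Itga6- cells were called lower than CD34+ cells by -1.23 (limma adjusted p = 0.0471). Its 24 probe sets also parted: 1 was called lower in Gata6+Itga6+ cells than in CD34+ cells (1.86% of all probe sets) and a different one was called higher in Gata6+Itga6- cells than in CD34+ cells. Pfkfb2, a related enzyme, averaged 4.86 in Gata6+Itga6-, 5.78 in Gata6+Itga6+, 4.94 in CD34+ and 5.19 in remaining basal cells, with no pair called.

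Pgk1 and Ldha act late in glycolysis, Pgk1 in a step that yields ATP and Ldha in turning pyruvate into lactate. Pgk1 was read by 1 probe set, which lay under the level of silent genes on all 12 arrays, at 1.41 to 2.13. Pgam1 and Eno1, with 1 probe set each, and Tpi1, with 3, likewise averaged under 2.46 in all populations. These are enzymes that cells of every kind use, and nothing is read from these low values about the presence of the mRNA. Ldha, with 2 probe sets, read 3.63, 4.13 and 3.68 in Gata6+Itga6- cells, 3.81, 3.73 and 3.70 in Gata6+Itga6+ cells, 3.84, 4.86 and 4.76 in CD34+ cells and 4.04, 3.98 and 4.03 in remaining basal cells. CD34+ replicates 2 and 3 were above all other arrays, while CD34+ replicate 1 lay within them. No pair was called for Ldha with all arrays; Gata6+Itga6+ minus CD34+ cells was -0.74 (SE 0.24, limma adjusted p = 0.139). Without CD34+ replicate 1, the array that was also low in Slc2a1, Ldha was lower than in CD34+ cells by -0.998 in Gata6+Itga6- cells (limma adjusted p = 0.003) and by -1.06 in Gata6+Itga6+ cells (0.00404), and CD34+ cells exceeded remaining basal cells by 0.79 (0.0156). Ldhb, the other lactate dehydrogenase subunit, averaged 3.76 in Gata6+Itga6-, 3.52 in Gata6+Itga6+, 3.20 in CD34+ and 2.90 in remaining basal cells, with no pair called.

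Hif1a, the oxygen-regulated subunit, stood at 4.83, 4.34 and 4.67 in Gata6+Itga6- cells, 5.57, 5.76 and 4.76 in Gata6+Itga6+ cells, 5.52, 5.78 and 6.40 in CD34+ cells and 5.28, 6.07 and 6.60 in remaining basal cells. The Gata6+Itga6- arrays lay below all CD34+ and remaining basal arrays and overlapped with Gata6+Itga6+ replicate 3. Gata6+Itga6- minus CD34+ cells was -1.29 (95% interval -2.11 to -0.47, limma adjusted p = 0.0644) and Gata6+Itga6- minus remaining basal cells -1.37 (-2.19 to -0.55, limma adjusted p = 0.0657), both just short of a call. The first was called without Gata6+Itga6+ replicate 3 (limma adjusted p = 0.0492), remaining basal replicate 1 (0.0359) or remaining basal replicate 3 (0.0431), and the other without remaining basal replicate 1, at -1.72 (0.0238). With the mean in place of the median of probe sets both were called, at -1.45 (limma adjusted p = 0.00136) and -1.17 (0.00749). By single probe sets, 9 of 19 were called lower in Gata6+Itga6- cells than in CD34+ cells and 5 of 19 lower than in remaining basal cells (3.98% and 2.38% of all probe sets). A probe set in both sets read 2.49, 2.50 and 3.31 in Gata6+Itga6- cells, 3.36, 3.28 and 3.55 in Gata6+Itga6+ cells, 4.95, 4.15 and 4.59 in CD34+ cells and 4.91, 4.93 and 4.74 in remaining basal cells, and was also called lower in Gata6+Itga6+ cells than in remaining basal cells (-1.47, limma adjusted p = 0.0425; 0.528% of all probe sets). Epas1, the gene of the related HIF-2 alpha subunit, averaged 2.00, 2.58, 2.08 and 2.24 in Gata6+Itga6-, Gata6+Itga6+, CD34+ and remaining basal cells, over the level of silent genes in Gata6+Itga6+ cells alone and with no pair called.

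Egln3 encodes a prolyl hydroxylase that marks the HIF alpha subunits for degradation and is itself raised by them. It read 2.21, 2.77 and 2.32 in Gata6+Itga6- cells, 2.23, 2.13 and 2.34 in Gata6+Itga6+ cells, 2.12, 2.17 and 4.17 in CD34+ cells and 1.94, 2.41 and 2.35 in remaining basal cells. CD34+ replicate 3 stood apart from the other 11 arrays, which lay near or under the level of silent genes, and no pair was called (limma adjusted p of at least 0.648). Of the 14 Egln3 probe sets, 10 exceeded that level in at least 1 population, and the brightest averaged 4.49 over the 12 arrays. CD34+ replicate 3 was also the brightest of the 12 arrays, with an upper quartile of intensity of 17.8 against 12.2 to 16.9 on the others. The part of array brightness in its Egln3 level was not tested. Egln1, the more broadly expressed hydroxylase, averaged 3.09, 3.10, 2.97 and 2.83 in Gata6+Itga6-, Gata6+Itga6+, CD34+ and remaining basal cells, with no pair called.

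Vegfa encodes the growth factor that draws in blood vessels. Its level was 3.14, 2.27 and 2.65 in Gata6+Itga6- cells, 2.82, 2.64 and 2.39 in Gata6+Itga6+ cells, 2.43, 2.67 and 3.04 in CD34+ cells and 2.48, 2.63 and 2.54 in remaining basal cells. All 4 populations overlapped, and the 95% intervals of the 6 differences between them lay between -0.59 and 0.66. The population means of the gene median, 2.55 to 2.71, lay close to the level of silent genes (2.46), where a difference would be hard to see. Of the 15 Vegfa probe sets, 11 exceeded that level in at least 1 population, and the brightest averaged 4.96 over the 12 arrays. Among the 15, 1 was called, lower in Gata6+Itga6- cells than in remaining basal cells, at 1.97, 1.92 and 1.75 against 2.79, 3.13 and 3.63 (2.38% of all probe sets). Another read 5.33, 3.20 and 2.22 in Gata6+Itga6- cells, 2.73, 5.36 and 1.68 in Gata6+Itga6+ cells, 1.51, 3.74 and 2.75 in CD34+ cells and 5.22, 6.38 and 6.73 in remaining basal cells, where it overlapped with 1 array each of the Gata6+ populations, and it was not called.

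Bnip3 and Ndufa4l2 act at mitochondria. Bnip3, a protein of the outer membrane that marks mitochondria for autophagy, stood at 2.81, 3.11 and 2.99 in Gata6+Itga6- cells, 5.12, 4.51 and 4.19 in Gata6+Itga6+ cells, 4.89, 4.00 and 4.65 in CD34+ cells and 3.94, 3.58 and 5.41 in remaining basal cells. The Gata6+Itga6- arrays lay below the other 9. The differences of Gata6+Itga6- cells were -1.64 from Gata6+Itga6+ cells, -1.55 from CD34+ cells and -1.34 from remaining basal cells, each with an SE of 0.43, and limma's adjusted p of 0.0857, 0.0598 and 0.138 missed the threshold. Without remaining basal replicate 3, the highest of its population, the first 2 of these were called (limma adjusted p = 0.0129 and 0.00769), and without remaining basal replicate 2 the one from CD34+ cells was (0.0442). The 3 probe sets of Bnip3 disagreed. A probe set that averaged 2.97 in Gata6+Itga6- cells read 4.76, 4.91 and 4.35 in Gata6+Itga6+, CD34+ and remaining basal cells, while another read 5.39 in Gata6+Itga6- cells and 4.81, 5.06 and 5.41 in the same order, and the third was under the level of silent genes. None of the 3 was called in any pair by limma, and the gene level of Bnip3 in Gata6+Itga6- cells is the value of the first of these probe sets. Bnip3l, its close relative, averaged 4.66 in both Gata6+ populations, 4.48 in CD34+ and 4.51 in remaining basal cells.

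Ndufa4l2 is a hypoxia-induced relative of the respiratory chain protein Ndufa4 and is reported to restrain mitochondrial oxygen use. It read 2.10, 1.82 and 2.07 in Gata6+Itga6- cells, 2.89, 2.79 and 2.16 in Gata6+Itga6+ cells, 2.39, 1.93 and 3.18 in CD34+ cells and 5.57, 5.44 and 4.86 in remaining basal cells. The remaining basal arrays stood apart from the other 9, which lay around the level of silent genes. Against remaining basal cells (5.29 ± 0.38, SD, n = 3) it was lower in Gata6+Itga6- cells by -3.29 (SE 0.32, limma adjusted p = 0.00016), at least 7.10-fold, in Gata6+Itga6+ cells by -2.68 (limma adjusted p = 0.00254), 6.39-fold, and in CD34+ cells by -2.79 (limma adjusted p = 0.000483), 6.90-fold. These 3 calls share the remaining basal arrays and were kept in all 22 alternative settings. The other 3 populations were not called apart, with differences of -0.62 (95% interval -1.32 to 0.09) for Gata6+Itga6- minus Gata6+Itga6+ cells, -0.51 (-1.21 to 0.20) for Gata6+Itga6- minus CD34+ cells and 0.11 (-0.59 to 0.82) for Gata6+Itga6+ minus CD34+ cells.

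Of the 6 Ndufa4l2 probe sets, 5 were called lower in Gata6+Itga6- cells than in remaining basal cells, while 2 were for Gata6+Itga6+ cells and 3 for CD34+ cells (2.38%, 0.528% and 2.5% of all probe sets), and the sixth stayed under 2 on all 12 arrays. The brightest read 2.57, 2.36 and 2.63 in Gata6+Itga6- cells, 2.97, 2.95 and 2.23 in Gata6+Itga6+ cells, 2.39, 2.52 and 2.44 in CD34+ cells and 6.65, 7.41 and 6.28 in remaining basal cells. The gene median of Ndufa4l2 therefore held the dimmer sets too, and the difference of its brightest set from remaining basal cells was -4.26 (Gata6+Itga6-) and -4.06 (Gata6+Itga6+), each with an SE of 0.29, while in CD34+ cells the mean of this probe set fell under the silent-gene level. Ndufa4, read by 1 probe set, averaged 4.39, 5.16, 4.55 and 4.75 in Gata6+Itga6-, Gata6+Itga6+, CD34+ and remaining basal cells, with no pair called. The genes most like Ndufa4l2 over the 12 arrays were Il1r2 (r = 0.953), Epgn (0.947) and Trerf1 (0.928), which encode the decoy receptor of interleukin 1, a ligand of the EGF receptor and a transcriptional regulator. Ndufa4l2 is known as a gene of pericytes in blood vessel walls, and 8 of 10 pericyte and smooth muscle genes, among them Rgs5, Pdgfrb, Kcnj8, Abcc9, Acta2 and Des, were under the level of silent genes in all 4 populations. The other 2, Cspg4 and Notch3, followed another order: Cspg4 averaged 2.34, 3.38, 4.67 and 2.79 in Gata6+Itga6-, Gata6+Itga6+, CD34+ and remaining basal cells, and Notch3 3.88, 3.13, 2.77 and 2.82. The summed intensity of that list was 33.9 to 39.2 on the Gata6+Itga6- arrays, 33.3 to 38.4 in Gata6+Itga6+ cells, 41.7 to 57.5 in CD34+ cells and 31.0 to 34.5 in remaining basal cells. The part of pericytes in the level of Ndufa4l2 was not tested. Early response genes, which enzymatic digestion of tissue may switch on, moved with the remaining basal population: 4 of 10 were lower in Gata6+Itga6- and 6 of 10 lower in CD34+ than in remaining basal cells, with summed intensities of 242 to 482 on Gata6+Itga6-, 315 to 587 on Gata6+Itga6+, 219 to 267 on CD34+ and 537 to 805 on remaining basal arrays. Of all genes, 2.15% were lower in Gata6+Itga6- and 1.67% lower in CD34+ than in remaining basal cells. The summed intensities of Gata6+Itga6+ and remaining basal arrays overlapped. The part of the early response genes in the level of Ndufa4l2 was not tested.

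Several members were lowest in Gata6+Itga6- cells, which led to a further comparison, chosen after these values were seen: Gata6+Itga6- cells against the mean of the 3 Itga6+ populations in the same limma fit. In it 2 of 10 members were called, both lower, where 6.31% of all genes were called, 3.41% of genes lower. Low members prompted the comparison, so its direction and counts are no independent support, and the adjusted p does not account for the choice. Bnip3 was lower by -1.51 (SE 0.35, limma adjusted p = 0.0315), with all 9 Itga6+ arrays above the highest Gata6+Itga6- array. Ndufa4l2 was lower by -1.47 (SE 0.26, limma adjusted p = 0.00636), a value that remaining basal cells set. Hif1a (-1.14, SE 0.30, limma adjusted p = 0.0536) and Slc2a1 (-1.37, SE 0.43, limma adjusted p = 0.107) missed the threshold, each with 8 of 9 Itga6+ arrays above the highest Gata6+Itga6- array, and Hk2 missed it with 6 of 9 (-0.50, limma adjusted p = 0.0911). The call of Bnip3 was lost in 11 of 21 alternative settings and its sign turned with the brightest probe set (0.30). Leaving out Gata6+Itga6- replicate 1, 2 or 3 (limma adjusted p = 0.132, 0.0888 and 0.116), CD34+ replicate 1 or 3 (0.0533 and 0.0547) or Gata6+Itga6+ replicate 2 (0.0522) each ended it. Hif1a was called without Gata6+Itga6+ replicate 3 (0.0327) or remaining basal replicate 1 (0.0208), Slc2a1 without CD34+ replicate 1 (-1.60, 0.00557) and Hk2 without Gata6+Itga6+ replicate 2 (-0.58, 0.00819).

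By single probe sets in this comparison, 10 of 10 were negative for Slc2a1 (2 called), 24 of 25 for Hk2 (0 called by limma), 18 of 19 for Hif1a (6 called) and 20 of 24 for Pfkfb3, whose 1 called probe set was higher in Gata6+Itga6- cells (1.40, limma adjusted p = 0.0209), while Egln3 had 7 of 14 and Vegfa 11 of 15 negative, where 2.87% of all probe sets were called. Of the members called at the gene level, Bnip3 had 2 of 3 probe sets negative (0 called by limma) and Ndufa4l2 5 of 6 (1 called). Probe sets of a gene read the same RNA and are not replicates. Over the members the median difference was -0.44, with 7 of 10 negative, against -0.02 over all genes, of which 55.7% were negative. Other markers moved with the same population. All 5 basal keratinocyte genes were called lower in Gata6+Itga6- cells than in Gata6+Itga6+ and remaining basal cells, and 4 of 5 lower than in CD34+ cells, and 5 of 6 cell cycle genes were lower than in Gata6+Itga6+ cells. Markers of the upper follicle (Krt79, Plet1, Lrig1, Defb6 and Gata6) were higher, 3 of 5 against Gata6+Itga6+ cells and 5 of 5 against CD34+ and against remaining basal cells, and of 6 differentiated keratinocyte markers 3, 6 and 2 were higher and 1, 0 and 1 lower in the same order. The basal and upper follicle lists include the sort genes Itga6 and Gata6, whose differences across a gate follow from the sort and are no separate evidence. Of all genes, 3.18%, 7.96% and 5.11% were called in either direction against Gata6+Itga6+, CD34+ and remaining basal cells. The summed intensity of the upper follicle genes was 1798 to 2044 on Gata6+Itga6- arrays, 729 to 1015 on Gata6+Itga6+, 61.7 to 94.7 on CD34+ and 49.1 to 93.2 on remaining basal arrays, and that of the differentiated genes 1364 to 1429.8, 933 to 1260.4, 111 to 215 and 898 to 1189. The immune genes H2-Aa and Cd3e averaged 3.38 and 2.73 in Gata6+Itga6- cells and were under the level of silent genes in the other populations; neither was called in any pair. The summed intensity of the basal genes was 593 to 758 on Gata6+Itga6- arrays, 1590 to 1690 on Gata6+Itga6+, 1479 to 1905 on CD34+ and 1782 to 2214 on remaining basal arrays. The part of these markers in the values of the members was not tested.

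**Figure D4:**
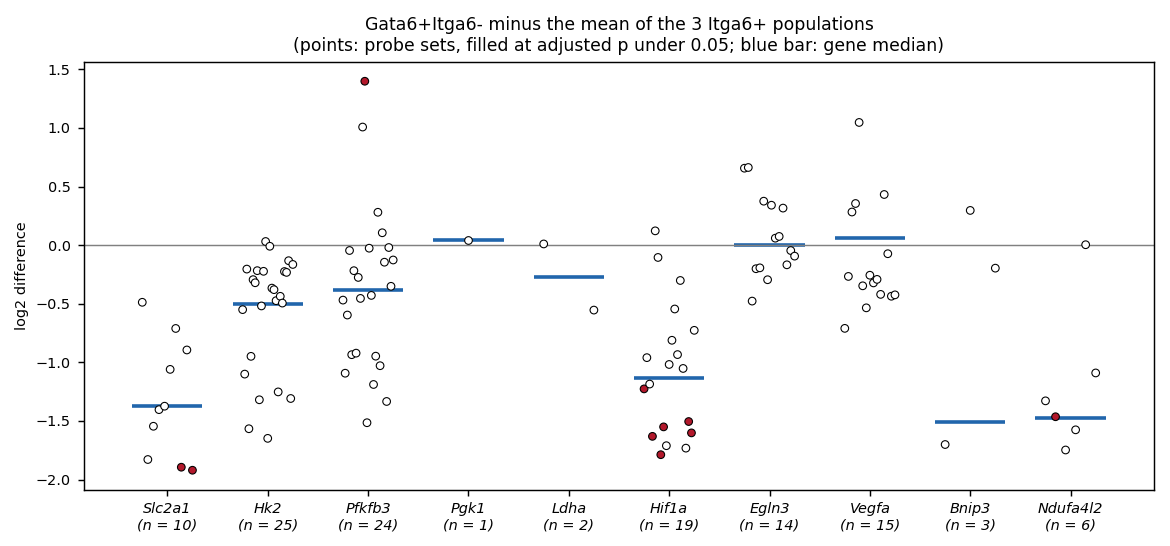
Log2 difference of Gata6+Itga6- cells from the mean of the 3 Itga6+ populations for each probe set of the 10 genes (points; filled at an adjusted p under 0.05 over all probe sets) and for the gene level (blue bar). Points of Slc2a1, Hk2 and Hif1a lie almost all below 0, those of Egln3 lie on both sides, and the 3 of Bnip3 lie apart.

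Of 95 other genes of these pathways, 89 were measured and the others were not analysed here. Of the 28 other glycolysis genes, 14 were under the level of silent genes in all populations. Hk1 was 1 gene lower in Gata6+Itga6- cells than in CD34+ cells, where 7.96% of all genes were called. Higher than in remaining basal cells were 1 in Gata6+Itga6- and 1 in CD34+ cells (5.11% and 5% of all genes called). In the other 3 comparisons 0 were called by limma (1.36% to 4.59% of all genes). There 3 to 6 had an unadjusted p under 0.05, as did 11.6% to 14.5% of all genes. The gene that was higher was in both cases Pdk2, a kinase that shuts pyruvate out of mitochondria. Pdk2 averaged 3.75 in Gata6+Itga6-, 3.03 in Gata6+Itga6+, 3.92 in CD34+ and 2.21 in remaining basal cells, the last of these under the level of silent genes. Against remaining basal cells, Pdk2 in Gata6+Itga6- cells was at least 2.44-fold higher (limma adjusted p = 0.00673), and Pdk2 in CD34+ cells at least 2.76-fold higher (limma adjusted p = 0.00357). Gpi1, the isomerase that follows hexokinase, stood at means of 6.33, 7.75, 7.33 and 7.38 in Gata6+Itga6-, Gata6+Itga6+, CD34+ and remaining basal cells, and was not called (Gata6+Itga6- minus Gata6+Itga6+ cells -1.42, limma adjusted p = 0.273); it was chosen after its values were seen.

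Among 11 other regulators of the factors, Cited2, which competes with them for a coactivator, was the only one called by limma in the 6 pairs, lower than in CD34+ cells by -1.09 in Gata6+Itga6- cells (limma adjusted p = 0.0141) and by -1.85 in Gata6+Itga6+ cells (limma adjusted p = 0.00105). Cited2 was also called higher in CD34+ than in remaining basal cells. In these comparisons, in order, 7.96%, 4.59% and 5% of all genes were called. Cited2 was highest in CD34+ cells, at 5.44 to 6.23, while Gata6+Itga6- arrays lay at 4.33 to 4.94, Gata6+Itga6+ arrays at 3.87 to 4.11 and remaining basal arrays at 3.88 to 4.36. Of 29 other HIF target genes, Gata6+Itga6- cells had 2 higher and 3 lower against CD34+ cells, where 7.96% of all genes were called. Against remaining basal cells 2 were higher and 2 lower, where 5.11% of all genes were called, so that these targets moved both ways. The higher genes were Insig2, a brake on sterol regulatory factors, and Ero1a, an oxidase of the endoplasmic reticulum. Insig2 averaged 6.99 in Gata6+Itga6-, 5.58 in Gata6+Itga6+, 3.52 in CD34+ and 3.09 in remaining basal cells (Gata6+Itga6- minus CD34+ cells 3.48, SE 0.47, limma adjusted p = 0.000914), and Ero1a averaged 5.49, 4.23, 3.65 and 3.15 in the same order. The lower genes were Fam162a, a mitochondrial protein, at 2.56, 4.05, 4.55 and 4.94, Igfbp3, a binding protein of insulin-like growth factors, at 2.29, 3.18, 5.79 and 5.67, and, against CD34+ cells only, Vldlr, a lipoprotein receptor that stayed close to silent. Gata6+Itga6+ cells had Insig2 higher and Igfbp3 lower than CD34+ and remaining basal cells, and Ndrg1, a stress-responsive gene, lower than CD34+ cells, where it averaged 5.19, while Gata6+Itga6-, Gata6+Itga6+ and remaining basal cells averaged 4.06, 3.63 and 3.40. CD34+ cells had Ndrg1 and Vldlr higher and Rora, a nuclear receptor, lower than remaining basal cells. Of all genes, 4.59% were called between Gata6+Itga6+ and CD34+ cells and 1.36% between Gata6+Itga6+ and remaining basal cells. Between CD34+ and remaining basal cells 5% were called. Car9 and Adm, HIF targets often used as signs of hypoxia, were under the level of silent genes in all populations and were chosen after their values were seen.

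Of 13 genes of mitochondrial respiration, the citrate synthase gene Cs was called, at 5.66 in Gata6+Itga6-, 5.67 in Gata6+Itga6+, 4.01 in CD34+ and 5.58 in remaining basal cells. It was lower in CD34+ than in remaining basal cells by -1.57 (limma adjusted p = 0.0435), and higher than in CD34+ cells by 1.65 in Gata6+Itga6- (limma adjusted p = 0.0247) and by 1.66 in Gata6+Itga6+ cells (limma adjusted p = 0.0354). In these comparisons, in order, 5%, 7.96% and 4.59% of all genes were called. Of 8 other VEGF ligands and receptors, 6 were under the level of silent genes in all populations. Vegfd, a ligand of lymphatic vessel growth, averaged 3.09 in Gata6+Itga6-, 5.94 in Gata6+Itga6+, 3.58 in CD34+ and 5.63 in remaining basal cells. Vegfd was lower in Gata6+Itga6- cells than in Gata6+Itga6+ cells by -2.85 (SE 0.39, limma adjusted p = 0.00423) and than in remaining basal cells by -2.55. It was higher in Gata6+Itga6+ cells than in CD34+ cells by 2.36, and lower in CD34+ than in remaining basal cells by -2.05. For these Vegfd comparisons, in order, 3.18%, 5.11%, 4.59% and 5% of all genes were called. The gene level of Vegfa, close to that of silent genes, did not differ beyond its replicates between any of these populations. Nrp1, a coreceptor, was called lower in Gata6+Itga6- cells than in CD34+ cells but stayed under the level of silent genes in all 4.

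**Figure D5:**
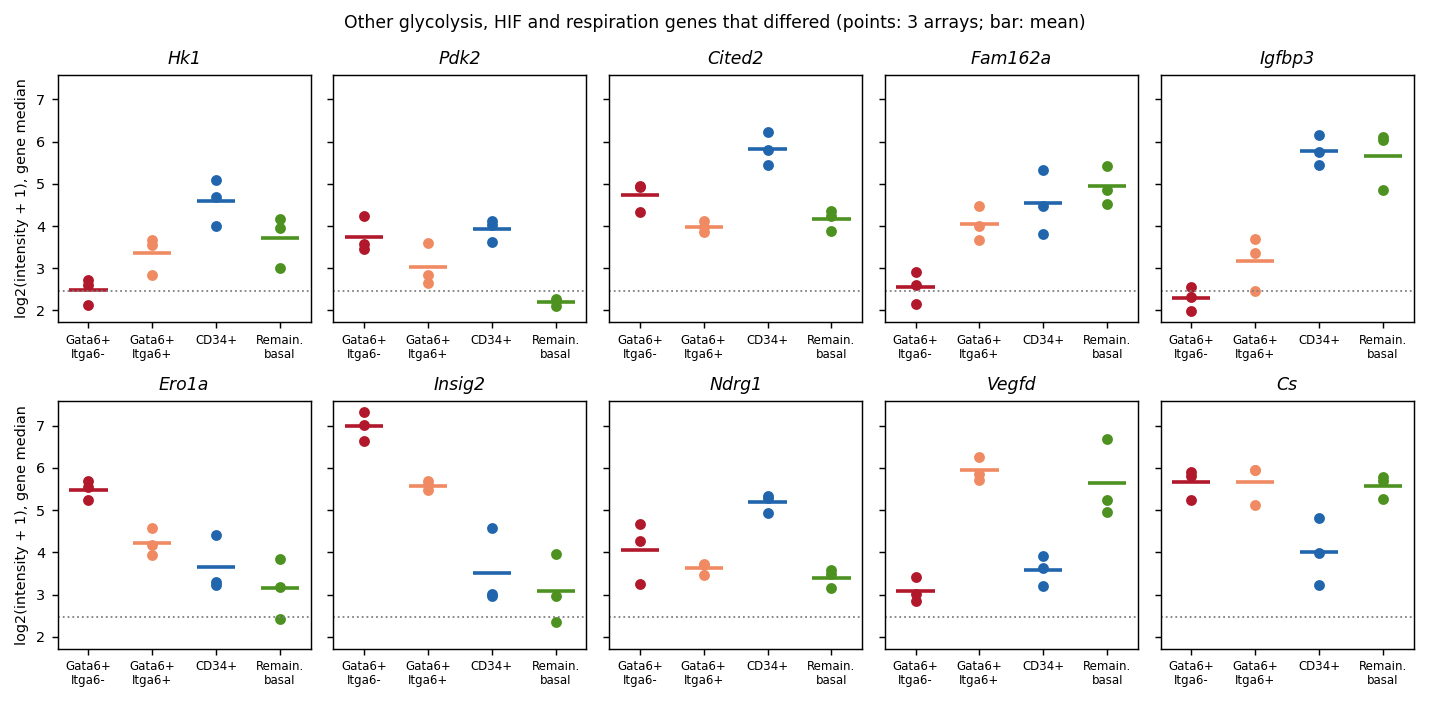
Log2 level on each array (points) and population mean (bar) of 10 other genes of glycolysis, the HIF pathway, VEGF signalling and respiration that were called in at least 1 comparison, with the level of silent genes dotted. Insig2 and Ero1a are highest in Gata6+Itga6- cells, Cited2 and Ndrg1 in CD34+ cells, and Igfbp3 lies at 3.70 or lower on the Gata6+ arrays, against 4.86 or higher on the CD34+ and remaining basal arrays.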

How the data were processed

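Exon array intensities of 12 samples, 3 for each of 4 sorted populations, were analysed. The values were intensities per probe set, deposited by the authors after robust multi-array average (RMA) processing with Affymetrix Power Tools and build mm9; the submitters' processing notes name these without versions. RNA was amplified before labelling, per the labels' protocols. The scale was not stated. Medians per array lay at 3.97 to 4.57 and maxima at 2172 to 2953, so values were read as linear, and every log2 level rests on this. RMA puts the arrays on a common scale, so a shift shared by most genes is reduced. Array number limits the precision.

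Of 235932 probe sets, the 221205 with 1 symbol were used (1684 had several and 13043 none listed); 15377 symbols were current, 2489 were updated through a RefSeq table of assembly GRCm38.p6 and 42 kept. Adding 1 before log2 makes differences of dim genes smaller. The median of a gene's probe sets (median 10 per gene) gave 17853 genes. With limma 3.58.1 (R 4.3.3), 1 linear model of population means took in the 12 arrays together (prior degrees of freedom 2.12, residual 8). A fold against a mean under the level of silent genes was taken against that level and is given as at least that size, which is not a confidence bound. On simulated CD34+ and remaining basal arrays of 17853 genes the procedure called 20%, 52%, 90% and 98% of the genes given a log2 difference of 0.5, 1, 2 and 3, with 50 genes at each size.

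The members, the pathway and marker lists and the alternatives were chosen with earlier results of these data known. Named are the 10 members, paralogs of members, other pathway genes that were called (at most 4 per list and comparison), the 3 genes most alike to each member called by the F test, and the sort genes; Slc2a3, Bnip3l, Tpi1, Pgam1, Eno1, Gpi1, Car9 and Adm were added after their values were seen. Markers are given as lists; 4 of 6 fibroblast, 4 of 5 melanocyte and 3 of 5 immune genes were under the level of silent genes in all populations. Settings varied were the added constant, the summary of probe sets, a filter on dim genes, the normalization, array brightness, blocks by replicate number and array letter, the populations fitted, and each array left out.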

Additional observations from a re-analysis of the deposited data

How the results depend on the processing

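The calls of Ndufa4l2 against remaining basal cells held in all 22 alternative settings, and those of Hk2 in Gata6+Itga6- against CD34+ cells and in CD34+ against remaining basal cells in 21 of 22; of all member results under these settings 1445 stayed on their side of the threshold, 31 fell short of it, 39 passed it only in an alternative and 1 called value turned its sign. Differences that were not called could change sign, such as that of Slc2a1 in Gata6+Itga6+ against CD34+ cells (-0.34 to 0.85). In Gata6+Itga6+ against remaining basal cells, the 2 called members became 1 (Ndufa4l2) with 16 added before log2, the mean of probe sets, the brightest probe set, probe sets above the silent level, a second quantile normalization, array brightness as a covariate, the replicate block (1), the array letter block and a fit of these populations alone. In Gata6+Itga6+ against CD34+ cells the mean of probe sets gave 1 member in place of 0. In Gata6+Itga6- against Gata6+Itga6+ cells 1 was called in place of 0 without the dimmest genes or in a fit of these populations alone. In Gata6+Itga6- against CD34+ cells the 1 called became 0 with the brightest probe set, 2 with the mean of probe sets, probe sets above the silent level or quantile normalization, and 3 without the dimmest genes or in a fit of these populations alone. In Gata6+Itga6- against remaining basal cells the 1 called became 2 with the mean, without the dimmest genes, with quantile normalization, with brightness as a covariate and with these populations alone. With the brightest probe set, 1 in place of 2 was called in CD34+ against remaining basal cells and over the 4 populations. In the comparison with the mean of the 3 Itga6+ populations, 2 became 4 with the mean of probe sets, 3 without the dimmest genes or with quantile normalization, and 1 with 16 added, the brightest probe set, probe sets above the silent level and the array letter block; Bnip3 turned from -1.51 to 0.30 with the brightest probe set. Leaving out 1 array gave 0 to 1, 1 to 2, 0 to 1, 1 to 3, 1 to 2 and 2 to 3 members in the order Gata6+Itga6+ against CD34+, Gata6+Itga6+ against remaining basal, Gata6+Itga6- against Gata6+Itga6+, against CD34+, against remaining basal, and CD34+ against remaining basal; 2 to 4 over the 4 populations; and 1 to 3 against the Itga6+ mean. The cause was not tested. Whether samples with the same replicate number were paired is not known. Of the correlations of deviations between such samples, 5 of 18 exceeded 0.1 (-0.14 to 0.28), which with 3 arrays per population cannot settle it. The replicate block moved no other count of members. Counts over all genes ranged in these settings from 110 to 454 for Gata6+Itga6+ against remaining basal cells (242), 503 to 1300 against CD34+ cells (819), 285 to 995 for Gata6+Itga6- against Gata6+Itga6+ cells (567), 1056 to 2159 against CD34+ cells (1421), 644 to 1403 against remaining basal cells (913), and 571 to 1513 for CD34+ against remaining basal cells (892).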
